A study of Mus musculus with 4 samples.

Results

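The genes described here are 10 genes of STAT5 signalling and its feedback control: Stat5a, Stat5b, Stat3, Jak2, Cish, Socs1, Socs2, Socs3, Sh2b3 and Pim1. Every probe set annotated to 1 of them on an Affymetrix Mouse Genome 430 2.0 array was taken, which gave 25 probe sets of 45101; 18193 genes are named on the array. Sh2b3 was selected on its own signals, since it read higher with anti-DNP IgE in both pairs of arrays, so its values in those pairs are a description. The data are log2 signals from 4 arrays of total RNA, each from MC/9 cells, a mast cell line from mouse fetal liver of (B6 X A/J)F1 background. The cells grew in DMEM with 10% fetal bovine serum and 10% Rat T-STIM, a supplement from stimulated rat T cells, and with 50 microM 2-mercaptoethanol.

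Of the 4 groups, the control had no treatment, BER had berberine at 10 microM, DNP had anti-DNP IgE at 500 microg/ml, and BER+DNP had both agents. The 3 treated groups had 24 h of treatment and 6 h of further culture, and no times are given for the control. Berberine, an alkaloid of barberry and related plants, blocks complex I of mitochondria, and the antibody binds the hapten dinitrophenyl. No antigen step is named. Each group held 1 array, so no difference below has a replicate check and no p-value is given.

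Cytokines such as IL-3 bind receptors that carry the kinase JAK2, which phosphorylates STAT5A and STAT5B. The phosphorylated STATs pair, enter the nucleus and bind DNA at sites of the form TTCNNNGAA. Their targets include genes of inhibitors that act back on the receptor and on JAK2, among them Cish and the Socs genes, so the levels of these messages are widely read as a sign of how active the pathway is. Mast cells depend on this pathway for growth and survival. The arrays read message only and say nothing of phosphorylation.

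RefSeq promoter windows (assembly GRCm38.p6, from 250 bases before to 50 bases after an annotated start) were held for 9 of the 10 genes, as 12 windows; Socs2 had no entry. The motif TTCNNNGAA, where N is any base, reads the same on both strands. It was found in 2 of the 12 windows, those of Cish and Socs3, and in 8.30% of all 32851 windows. Cish held 2 matches, TTCCTGGAA from base 1 to base 9 counted from the start and TTCTTGGAA from base 12 to base 20, and 0.457% of all windows held 2 or more. The match of Socs3, TTCTTAGAA, lay from base -154 to base -146. The Sh2b3 window held no match, which says only that these letters are not in this stretch. The windows of Cish (a textbook STAT5 target), of Socs3 (the gene with the widest range over the arrays) and of Sh2b3 are shown 5′ to 3′, with the fixed letters of each match in capitals. Cish lies at chr9:107296409-107296708 on the plus strand, Socs3 at chr11:117969317-117969616 on the minus strand and Sh2b3 at chr5:121836055-121836354 on the minus strand.
Cish: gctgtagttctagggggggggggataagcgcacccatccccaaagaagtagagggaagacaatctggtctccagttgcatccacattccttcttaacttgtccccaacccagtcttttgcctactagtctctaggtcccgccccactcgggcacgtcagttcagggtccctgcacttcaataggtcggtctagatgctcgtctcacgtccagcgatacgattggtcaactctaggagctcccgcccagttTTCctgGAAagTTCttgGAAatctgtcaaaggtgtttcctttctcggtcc
Socs3: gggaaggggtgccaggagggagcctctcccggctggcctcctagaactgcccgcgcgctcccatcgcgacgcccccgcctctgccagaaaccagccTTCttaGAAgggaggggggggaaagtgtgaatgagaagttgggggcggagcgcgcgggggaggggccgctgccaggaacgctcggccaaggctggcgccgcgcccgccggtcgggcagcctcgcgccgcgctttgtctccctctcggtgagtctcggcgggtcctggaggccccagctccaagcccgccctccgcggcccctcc
Sh2b3: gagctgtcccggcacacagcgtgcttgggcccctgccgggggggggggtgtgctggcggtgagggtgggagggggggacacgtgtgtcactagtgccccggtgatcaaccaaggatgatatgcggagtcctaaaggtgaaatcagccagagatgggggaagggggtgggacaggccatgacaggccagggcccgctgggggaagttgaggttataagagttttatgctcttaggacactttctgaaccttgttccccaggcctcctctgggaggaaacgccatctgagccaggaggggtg

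Signals across the arrays were alike for most of the probe sets. A filter was set at a mean log2 signal of 3.138, the median of all 45037 probe sets that are not array controls, and 22519 probe sets lay at or above it. Of the 25 probe sets, 14 passed, from 9 of the 10 genes, and 11 did not. Jak2 had no probe set past the filter. Signals of different probe sets depend on their sequences, so they rank no gene above another. Among the 14, the highest and lowest array lay a median of 0.19 log2 apart, against 0.30 for all probe sets past the filter. The range was under 1.2-fold in 9 of the 14, against 41.6% of all, and 1.5-fold or more in 2 of the 14, against 6.70% of all. Those 2 belonged to Socs3 and Sh2b3.

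**Figure D1:**
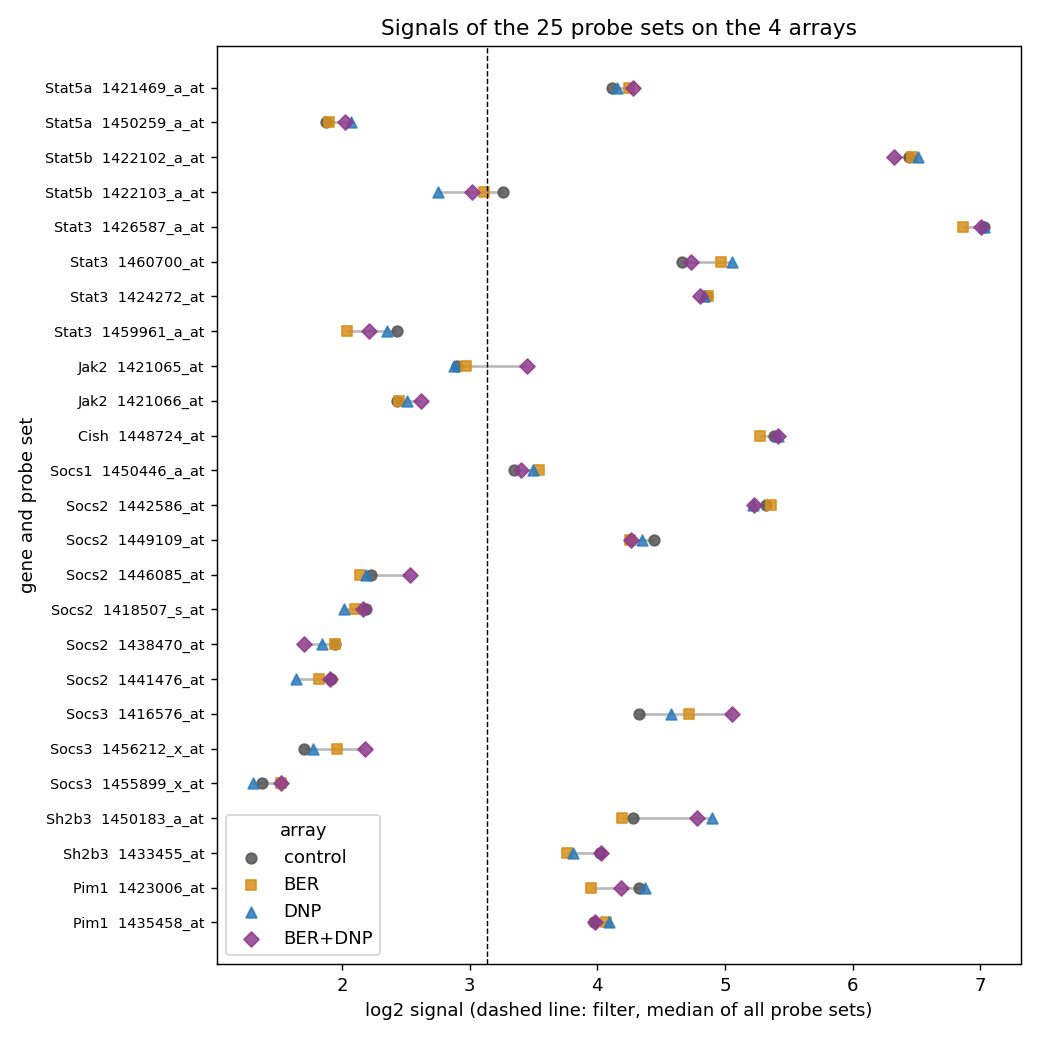
Log2 signals of the 25 probe sets (rows, by gene) on the 4 arrays (1 point per array, colour and shape by group); the dashed line marks the filter at 3.138. Most rows are tight clusters, while Socs3 1416576_at runs from 4.33 to 5.06 and Sh2b3 1450183_a_at from 4.19 to 4.90.

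A smaller share of the mast cell markers passed the filter than of all named genes. By brightest probe set 69.2% of all named genes passed the filter. Of 13 mast cell markers, 6 did: Hdc, Gata2, Fcer1g, Tpsb2, Cma1 and Mcpt4. Cpa3, Kit, Fcer1a and Ms4a2, which define mast cells, had mean log2 signals of 2.53, 2.78, 2.43 and 2.67, below it. Of the other markers, 3 of 6 for blood cells in general passed, 6 of 7 epithelial and 4 of 5 fibroblast. So did 3 of 4 T cell and 3 of 4 macrophage markers. The highest mean log2 signals were those of epithelial Krt17 (9.60), Krt14 (8.61) and Krt8 (7.33) and of T cell Cd8a (7.59). Of the markers for blood cells in general, Ptprc (2.29), Cd53 (2.19) and Coro1a (2.95) lay below the filter. Laptm5 (6.69), Arhgdib (5.46) and Vav1 (4.35) passed it. The subunits of the IL-3 receptor were read unevenly. Il3ra, its alpha chain, had log2 signals of 4.77 (control), 4.84 (BER), 4.69 (DNP) and 4.50 (BER+DNP), while both probe sets of Csf2rb, the shared beta chain, stayed between 1.98 and 2.58. The probe set of Csf2rb2, the mouse beta chain particular to IL-3, stayed between 2.27 and 2.48. In RNA from a whole culture, fewer cells of a type and less RNA per cell cannot be told apart. Signals also depend on the sequences of the probe sets, so the marker means do not rank cell types. Which cells the marker signals came from was not tested.

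JAK2 is the kinase that sits on the receptor, and its gene was read only weakly. Jak2 probe set 1421065_at had log2 signals of 2.90 (control), 2.97 (BER), 2.88 (DNP) and 3.45 (BER+DNP). The combined treatment stood apart from the other 3 arrays, by 0.55 from control, and it alone lay above the filter. The other Jak2 probe set, 1421066_at, read 2.43, 2.45, 2.51 and 2.62 in the same order. It was also highest in BER+DNP, by 0.19 over control. Both readings were too dim for the filter and entered no count.

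The STAT genes lay within 0.20 log2 over the 4 arrays on their brightest probe sets. Stat5a, which lies beside the closely related Stat5b on mouse chromosome 11, had log2 signals of 4.11 (control), 4.25 (BER), 4.16 (DNP) and 4.28 (BER+DNP) on probe set 1421469_a_at. Its berberine differences were 0.14 without and 0.12 with anti-DNP IgE, about the same size as the median absolute difference over all probe sets past the filter in those comparisons, 0.14 and 0.13. Stat5b read 6.45, 6.46, 6.51 and 6.32 on 1422102_a_at, where BER+DNP was lowest by 0.12 against control. The dimmer Stat5b probe set 1422103_a_at read 3.26, 3.12, 2.75 and 3.02, with DNP lowest, and its mean of 3.04 was below the filter. The dimmer Stat5a probe set, 1450259_a_at, stayed between 1.88 and 2.07. The suffix a in these names marks a probe set that can match several transcripts of a gene, and how far Stat5a and Stat5b share probe signal was not tested.

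Stat3, the next protein-coding gene after Stat5a on that chromosome, encodes the STAT that answers IL-6 family cytokines. Its brightest probe set, 1426587_a_at, read 7.03 (control), 6.86 (BER), 7.03 (DNP) and 7.01 (BER+DNP). BER was lowest there, by 0.17 against control, and the other 3 arrays lay close together. A second probe set, 1424272_at, read 4.86, 4.86, 4.83 and 4.81, which is flat. Another of like brightness, 1460700_at, read 4.66, 4.97, 5.05 and 4.74, with each single treatment higher than control and the combination close to it. The fourth was dim, between 2.04 and 2.43. The 3 brighter Stat3 probe sets therefore gave no common order of the arrays.

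CISH and the SOCS proteins are inhibitors made in response to STAT activity: CISH blocks the receptor's docking sites for STAT5, and SOCS1 and SOCS3 block JAK kinases. Cish had log2 signals of 5.39 (control), 5.27 (BER), 5.42 (DNP) and 5.41 (BER+DNP). BER was lowest by 0.12, and the other 3 arrays lay within 0.03 of each other. Socs1 read 3.34, 3.54, 3.49 and 3.40, all just above the filter, with control lowest by 0.06 to 0.20. Socs2, whose product acts on growth hormone receptor signalling, read 5.32, 5.36, 5.22 and 5.23 on 1442586_at and 4.44, 4.26, 4.35 and 4.26 on 1449109_at. On the second of these control was highest, by 0.18 over BER+DNP, and on the first BER was highest. The other 4 Socs2 probe sets lay between 1.64 and 2.54, below the filter.

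Socs3 was the feedback gene with the widest range. SOCS3 restrains JAK signalling at receptors of the IL-6 family and others. Probe set 1416576_at had log2 signals of 4.33 (control), 4.72 (BER), 4.57 (DNP) and 5.06 (BER+DNP). Control was lowest, each agent alone stood higher and the combination was highest. The differences were 0.39 for BER against control, 0.48 for BER+DNP against DNP, 0.25 for DNP against control and 0.34 for BER+DNP against BER. BER+DNP lay 0.73 above control, which is 1.66-fold. It was the only 1 of the 14 probe sets at least 1.5-fold apart in that comparison, where 0.950% of all probe sets past the filter were higher by that much and 0.826% lower. Among the 7599 probe sets with mean log2 signals from 4 to 5, as Socs3 has, 0.869% were that much higher. The difference was under the limit with 32 added to the linear signals (0.33) and by the median of the gene's probe sets (0.47).

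The other Socs3 probe sets were dim but kept part of that order. On 1456212_x_at the log2 signals were 1.71 (control), 1.96 (BER), 1.77 (DNP) and 2.18 (BER+DNP), the same order of arrays as on the bright probe set. On 1455899_x_at they were 1.37, 1.52, 1.30 and 1.52, with the berberine arrays above the arrays without berberine. All 3 Socs3 probe sets thus read higher with berberine in both pairs, by 0.14 to 0.48. With anti-DNP IgE the dimmest gave -0.07 and 0.00. Some of the array's control probe sets also read lower with berberine. The beta-actin probe set at the 5' end differed by -0.57 and -0.59 in the 2 berberine pairs. The middle beta-actin probe set differed by -0.54 and -0.51 and the 3' beta-actin probe set by -0.31 and -0.22. The poly-A spike-in controls differed by medians of -0.48 and -0.14. In BER+DNP against control the 5' beta-actin probe set differed by -0.38 and the poly-A controls by a median of -0.26. Others did not: the 5' Gapdh probe set gave 0.05 and -0.08, the 3' Gapdh probe set -0.03 and 0.02, and the hybridisation controls medians of 0.03 and 0.10. Their part in the Socs3 differences was not tested.

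**Figure D2:**
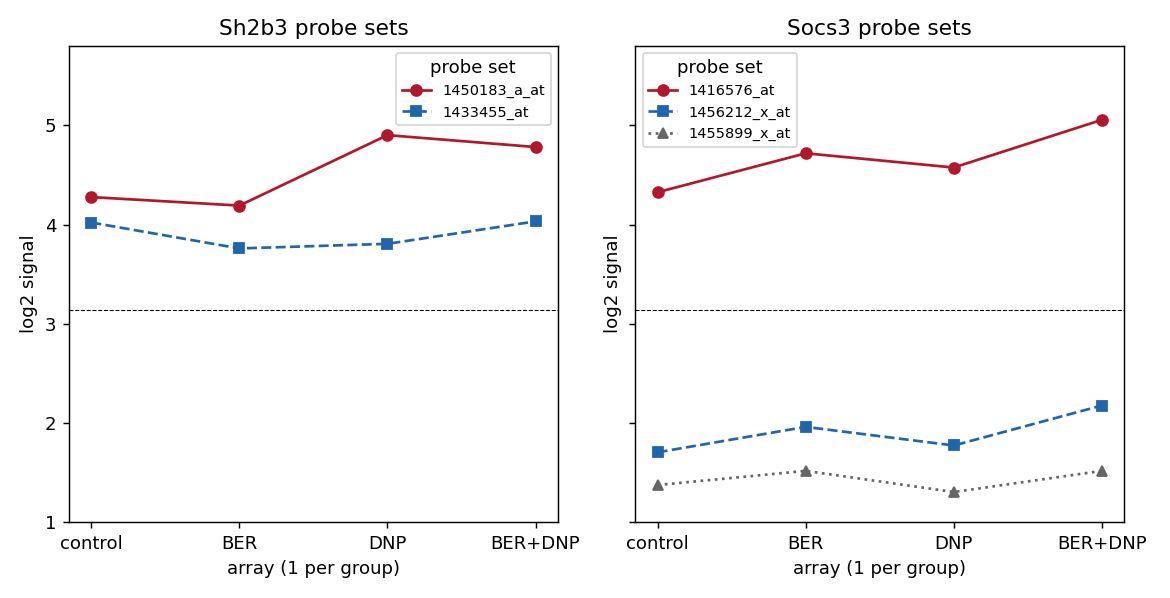
Log2 signal (vertical axis) of each Sh2b3 and Socs3 probe set on the 4 arrays (horizontal axis, 1 array per group); lines join values of 1 probe set and the dashed line marks the filter at 3.138. The Sh2b3 probe sets part company in DNP, at 4.90 and 3.81, while the 3 Socs3 lines each have BER above control and BER+DNP above DNP.

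Sh2b3 encodes LNK, an adaptor that binds JAK2 and KIT and damps signalling from cytokine receptors. Probe set 1450183_a_at had log2 signals of 4.28 (control), 4.19 (BER), 4.90 (DNP) and 4.78 (BER+DNP). Both arrays with anti-DNP IgE stood above both without it, and the berberine differences were small, -0.09 without and -0.12 with the antibody. The anti-DNP IgE differences were 0.62 (1.54-fold) without and 0.59 (1.51-fold) with berberine, just past the 1.5-fold limit of 0.585. These are the pairs on which the gene had been selected. Next among the 14 in both pairs was Socs3, well short of the limit at 0.25 and 0.34. In DNP against control 0.875% of all probe sets past the filter were at least 1.5-fold higher and 0.617% lower, and in BER+DNP against BER 0.613% and 0.373%. In both pairs at once 0.0266% were higher, 6 probe sets in all, and 0.00888% lower. With 32 added to the linear signals the differences were 0.27 and 0.24, under the limit.

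The second Sh2b3 probe set did not follow the first. On 1433455_at the log2 signals were 4.02 (control), 3.76 (BER), 3.81 (DNP) and 4.03 (BER+DNP). Its anti-DNP IgE differences were -0.21 without and 0.27 with berberine, of opposite sign, and both probe sets passed the filter. The brighter of the pair carries the suffix a. The summed linear signal of the 13 mast cell markers, as a log2 value, was 7.53 (control), 7.53 (BER), 7.72 (DNP) and 7.73 (BER+DNP). This sum also stood higher with the antibody, but its brightest members, Gata2 and Hdc, weigh most in it. In the anti-DNP IgE pairs Gata2 differed by 0.44 and 0.24, and Hdc by -0.10 and 0.54. Fcer1a gave -0.17 and -0.23 there, and Ms4a2 -0.31 and 0.00. Of the 13, of which 6 passed the filter, 6 were above 0 in both anti-DNP IgE pairs and 2 below 0 in both. Of all probe sets past the filter, 28.8% were above 0 in both pairs and 26.2% below. The sum of the 7 epithelial markers was 10.42, 10.45, 10.57 and 10.53 in the same order, with 2 members above 0 in both pairs and 2 below. The sums for blood cells in general (7.51, 7.67, 7.55 and 7.45) and fibroblasts (6.28, 6.25, 6.25 and 6.33) did not stand higher in both pairs. Those for macrophages (6.10, 6.27, 6.22 and 6.26) also did not, and those for T cells (8.19, 8.35, 8.20 and 8.38) were within 0.03 in each pair. Of the array's RNA controls, the 5' beta-actin probe set differed by 0.20 and 0.19 in the anti-DNP IgE pairs and the 3' beta-actin probe set by 0.01 and 0.10. The 5' Gapdh probe set differed by 0.16 and 0.03. Their part in the Sh2b3 readings was not tested.

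The genes whose signals lay nearest to the brighter Sh2b3 probe set, by Euclidean distance of log2 signals centred on each gene's mean over the 4 arrays, were Mgat2 (0.0719), C1qa (0.0725) and Rheb (0.106). For Rheb, the brightest of them, the log2 signals were 7.97 (control), 7.93 (BER), 8.55 (DNP) and 8.37 (BER+DNP). With only 4 arrays such nearness is a description.

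PIM1 is a survival kinase whose gene is a target of STAT5 and STAT3. Pim1 probe set 1423006_at had log2 signals of 4.32 (control), 3.95 (BER), 4.37 (DNP) and 4.18 (BER+DNP). The berberine arrays were the lowest, with differences of -0.37 without and -0.19 with anti-DNP IgE. The other probe set, 1435458_at, read 3.98, 4.07, 4.09 and 3.98 and gave 0.09 and -0.11, so the lower reading with berberine appeared on 1 of the 2 Pim1 probe sets.

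Berberine gave no call at 1.5-fold among the 14 probe sets. Against control, BER had 0 at least 1.5-fold higher and 0 lower, where 0.955% and 1.04% of all probe sets past the filter were. Against DNP, BER+DNP also had 0 and 0, beside 0.564% and 0.675%. In both pairs at once the counts were again 0 and 0, beside 0.0577% and 0.151% of all. The median difference of the 14 was 0.01 without and -0.06 with anti-DNP IgE, against 0.00 and -0.01 for all. Across the pairs, 3 of the 14 lay above 0 in both, 5 below 0 in both and 6 on opposite sides, against 25.5% of all above in both and 28.9% below. At 1.2-fold, a limit chosen after the values were seen, Socs3 alone was higher in both berberine pairs, where 1.95% of all probe sets were, and 0 were lower, where 2.99% were.

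Anti-DNP IgE gave 1 call in each pair, beside 0.875% of all probe sets higher in DNP against control and 0.613% in BER+DNP against BER. That call was the Sh2b3 probe set, of the gene selected on these same pairs, so nothing is read from the count. The median difference of the 14 was 0.05 without and 0.02 with berberine, against 0.02 and 0.00 for all probe sets past the filter. In both pairs 5 of the 14 lay above 0, 2 below 0 and 7 changed side or read exactly alike, against 28.8% of all above in both and 26.2% below. Among the feedback genes past the filter, Cish and Socs2 differed by 0.14 or less in either direction on each probe set, Socs1 by 0.15 and -0.14, and Socs3 by 0.25 and 0.34. Pim1 differed by 0.23 or less.

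**Figure D3:**
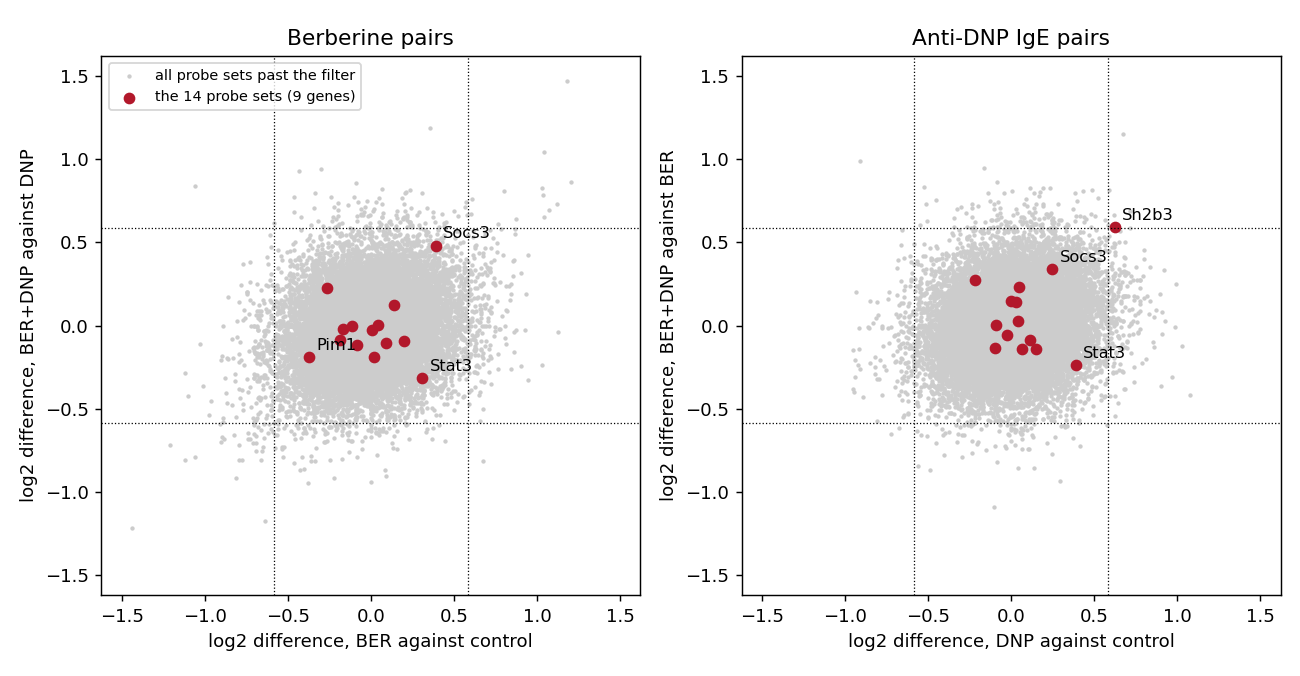
Log2 differences in the 2 berberine pairs (left) and the 2 anti-DNP IgE pairs (right), 1 pair per axis; grey points are the 22519 probe sets past the filter, red points the 14 described here, and dotted lines mark 1.5-fold. Socs3 lies at 0.39 and 0.48 in the berberine pairs, and Sh2b3 at 0.62 and 0.59 in the anti-DNP IgE pairs, at the corner of the dotted lines.

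Other genes of the pathway were taken from 4 lists, by the brightest probe set of each gene, and counted beside all 12585 genes that passed the filter in the same way. Of all these genes, 1.01% were at least 1.5-fold higher and 0.985% lower in BER against control. The shares were 0.509% and 0.699% in BER+DNP against DNP, 0.803% and 0.628% in DNP against control, 0.556% and 0.358% in BER+DNP against BER, and 0.906% and 0.874% in BER+DNP against control. Of 34 cytokine and receptor genes, 30 were measured and 20 passed, and 0 were 1.5-fold apart in any of the 5 comparisons. Csf2ra, the GM-CSF receptor alpha chain, came closest, with log2 signals of 3.91 (control), 3.61 (BER), 3.35 (DNP) and 3.84 (BER+DNP). Its largest difference was -0.55, in DNP against control, where its dim second probe set 1420703_at gave 0.01. In BER+DNP against DNP the 2 probe sets gave 0.48 and -0.19. Il6st encodes the gp130 subunit shared by IL-6 family receptors. It differed by -0.51 without and -0.36 with berberine in the anti-DNP IgE pairs, but its second probe set gave 0.34 and -0.08. Its dim probe sets gave -0.25 and -0.36 (1460295_s_at), and 0.12 and 0.05 (1437303_at). Lif, an IL-6 family cytokine gene, differed by -0.51 and -0.27 in the berberine pairs, with -0.03 and -0.27 on the second. Il5, the eosinophil growth factor gene, differed by 0.38 at most, in BER+DNP against BER.

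Of 10 other kinase, STAT and coactivator genes, 9 were measured and 7 passed, with 0 past 1.5-fold in any comparison. Jak1, the partner kinase of several cytokine receptors, differed by 0.25 without and 0.37 with berberine in the anti-DNP IgE pairs, while its dim probe sets 1433804_at and 1433805_at gave 0.11 and -0.22, and 0.00 and 0.20. The coactivator gene Ncoa1 stood 0.23 above control in BER, and BER+DNP differed from BER by -0.31. Its second probe set past the filter gave -0.33 and 0.10, and its dim probe set 1443397_at gave 0.33 and -0.19. Ep300, an acetyltransferase gene, gave 0.29 and 0.10 in the berberine pairs, and Stat6, which answers IL-4, gave 0.13 and 0.24 in the anti-DNP IgE pairs, with -0.23 and 0.16 on a second probe set just under the filter. The median of the 7 was 0.13 in DNP against control, against 0.02 for all genes, and 0.09 in BER+DNP against BER, against 0.00.

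Among 28 genes listed as other negative regulators, some of them adaptors with other roles, 25 passed and Socs7 stood apart. Socs7, a further member of the SOCS family, had log2 signals of 5.08 (control), 5.85 (BER), 5.04 (DNP) and 5.65 (BER+DNP) on its brightest probe set, 1455402_at. Both berberine arrays were above both others, by 0.76 without and 0.61 with anti-DNP IgE. It was the only 1 of the 25 past 1.5-fold in either berberine pair. In both pairs at once 0.0795% of all genes were that much higher, 10 in all, and 0.159% lower. Its other 3 probe sets past the filter did not follow: 1420766_at gave -0.02 and -0.02, 1438492_at 0.07 and -0.25, and 1434834_at -0.02 and 0.27. Pias2, of the family of STAT-binding SUMO ligases, differed by -0.24 and -0.53 in the berberine pairs. Its dim probe sets 1428725_at and 1419454_x_at gave 0.22 and 0.39, and 0.09 and -0.15. Stam, an endosomal sorting adaptor gene, differed by 0.50 and -0.05 in these pairs. Its dim probe sets gave -0.10 and 0.77 (1457828_at), 0.20 and 0.17 (1416861_at), and -0.03 and -0.03 (1416862_at). Dok2, which encodes an adaptor that restrains kinase signalling, differed by 0.02 and -0.41 in the berberine pairs.

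Of 30 other STAT3 and STAT5 target genes, 29 were measured and 25 passed. BER had 1 at least 1.5-fold higher than control and 1 lower, and BER+DNP had 0 and 0 against DNP. Against control, BER+DNP had 1 higher, Cebpb (0.77), and 1 lower, Hif1a (-0.59). Hif1a differed by -0.55 and -0.45 in the berberine pairs. Cebpb, a transcription factor gene, read 7.03 (control), 7.90 (BER), 7.22 (DNP) and 7.81 (BER+DNP), higher with berberine by 0.87 and 0.58, the latter just under the limit. Its dim second probe set gave 0.52 and 0.64. Id1, which encodes an inhibitor of DNA binding, read 7.93, 7.20, 7.74 and 7.38, with berberine differences of -0.73 and -0.37. With anti-DNP IgE 2 of the 25 were past 1.5-fold against control, Fos (0.71) and Tnfrsf1b, which encodes a TNF receptor (0.65). In BER+DNP against BER they differed by 0.26 and 0.50, and 0 of the 25 were past 1.5-fold. A second Tnfrsf1b probe set of like brightness gave 0.03 and -0.17. The list's median was -0.08 and -0.04 in the berberine pairs, against 0.00 and -0.02 for all genes, and 0.04 and 0.04 in the anti-DNP IgE pairs, against 0.02 and 0.00.

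**Figure D4:**
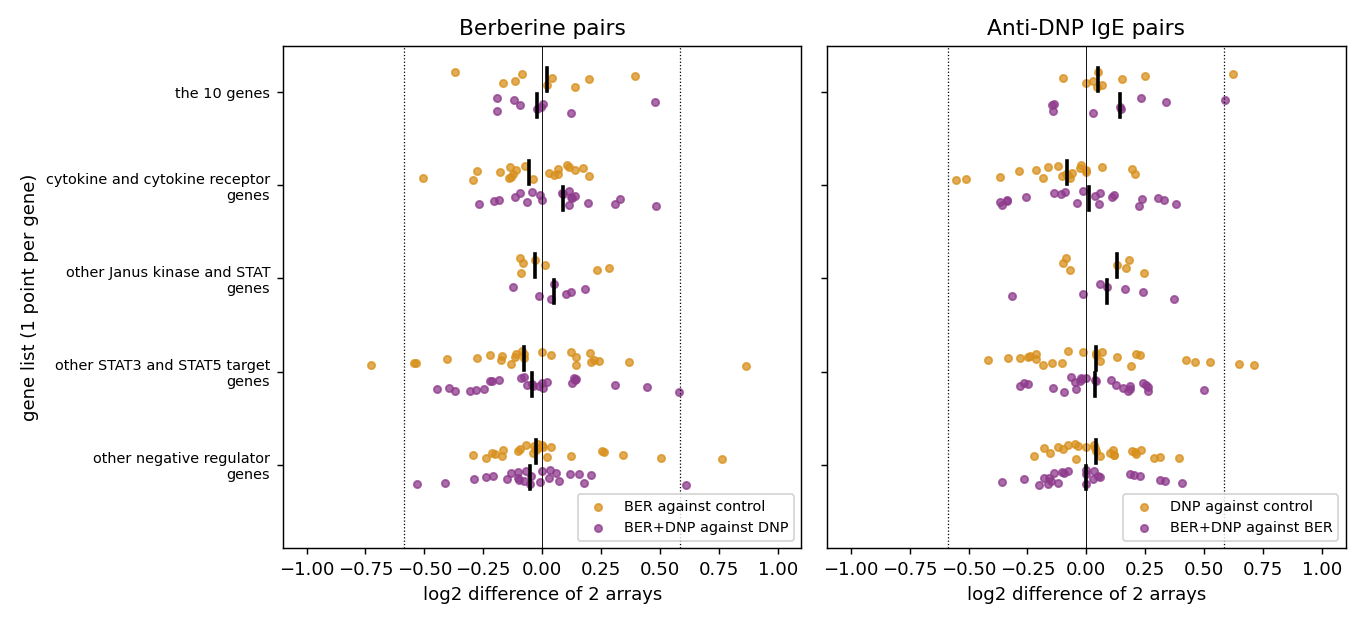
Log2 differences (horizontal axis) of genes past the filter, 1 point per gene by its brightest probe set, for the genes described here and 4 lists of other pathway genes (rows); colours mark the 2 pairs of each treatment, black bars the medians and dotted lines 1.5-fold. Most points lie between the dotted lines, and those outside include Cebpb (0.87) and Socs7 (0.76) in BER against control.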

How the data were processed

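Total RNA from MC/9 cells was measured on 4 arrays, 1 per group by the labels. The authors made the values with Affymetrix Expression Console, per the submitters' processing notes. Its version and algorithm, and any detection calls, are not stated there. The deposited values were taken as log2 signals because they run from about 1 to 14, and array medians lay between 3.13 and 3.15, so they were used as deposited. Any floor or smoothing at low signals stays in them and can shrink differences of dim genes.

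Of 45101 probe sets, 64 were array controls. Symbols came from a platform annotation of 2016, and all 10 genes matched RefSeq (GRCm38.p6) by identifier; 0 probe sets were shared with a gene of another name. Differences of 2 arrays were counted at 1.5-fold. The berberine pairs are BER with control and BER+DNP with DNP, the anti-DNP IgE pairs DNP with control and BER+DNP with BER; comparisons of different treatments share arrays. With 1 array per group, no test was run, and their number limits the precision. The genes, lists and limits were chosen with earlier results of these data known. From each list the 4 genes with the largest difference in any pair are named. So is any gene 1.5-fold apart in both pairs of a treatment. Hif1a is named as well, since it was past 1.5-fold in BER+DNP against control. Il3ra, Csf2rb and Csf2rb2 were added as the receptor of the pathway. Further probe sets of named genes were looked up after the values of these genes were seen. The steps were run on simulated arrays with planted differences larger than those called here. That run checks the code and does not bear on calls near 1.5-fold. Python 3.11.15, pandas 2.3.3 and numpy 2.4.6 were used.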

Additional observations from a re-analysis of the deposited data

Results flagged for a closer look

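A pair of probe sets gave opposite signs of at least 0.2 log2 in the 2 pairs of both treatments, a size chosen after the values were seen; with 1 array per group the difference was not tested. For Stat3 1460700_at, the berberine difference was 0.31 without and -0.32 with anti-DNP IgE, and the anti-DNP IgE difference 0.39 without and -0.24 with berberine. The second minus the first is -0.63 in either view, since both rest on the same 4 arrays. For Sh2b3 1433455_at, the berberine difference was -0.26 and 0.23 and the anti-DNP IgE difference -0.21 and 0.27, which makes 0.49 in either view. Over the 14 probe sets, the 2 berberine differences lay a median of 0.13 apart, against 0.17 for all probe sets past the filter.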

How the results depend on the processing

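Counts of the 14 probe sets at least 1.5-fold apart were compared under 6 other settings and 1 added after seeing the data. Quantile normalization, the filter at the 75th percentile and no filter left each count within 1.5 times of its value. With 32 or 100 added to the linear signals, which shrinks differences of dim genes by construction, the counts for DNP against control, BER+DNP against BER, BER+DNP against control and both anti-DNP IgE pairs were 0. Without probe sets of suffix s, x or a, which leaves 9, those for DNP against control, BER+DNP against BER and both anti-DNP IgE pairs were 0, since the bright Sh2b3 probe set is among those left out. The added call at 1.2-fold gave 3 in BER against control, 2 in BER+DNP against DNP, 2 in DNP against control, 3 in BER+DNP against BER, 2 in BER+DNP against control and 1 in both berberine pairs. Of 235 differences of single genes under the alternatives, 193 moved by less than 0.20 log2 and 42 by more. That size is the spread between the 2 berberine pairs put on the scale of 1 difference. An added number only shrinks a difference, so those already under 0.20 could not move by that much. Cish and Socs1 have 1 probe set each, so their median repeats the reported value. Where the brightest probe set carries no suffix, leaving suffixes out also repeats it. The 193 are therefore no measure of how stable the differences are. The sign was opposite to the reported value in 18 of the 235. Of the 3 single-gene differences of 1.5-fold or more, 1 turned, Sh2b3 in DNP against control, which was -0.21 on the probe set without suffix. Socs3 in BER+DNP against control was 0.33 with 32 added, 0.15 with 100 added and 0.47 by the median of its probe sets. An additive fit over both pairs of a treatment was possible, with 1 degree of freedom left for error, but was not run. Signals near the filter and 1 array per group limit what can be read.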
